A study of Homo sapiens with 6 samples.

Results

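Amino acid transporters are membrane proteins that carry amino acids into or out of the cell, and 10 of their genes were followed here in HT-29 cells grown resistant to bortezomib. The genes were SLC7A11, SLC7A5, SLC3A2, SLC1A5, SLC1A4, SLC7A1, SLC38A1, SLC38A2, SLC6A9 and SLC43A1. They were chosen by name, with earlier results of these data known, so their ranks and medians among all genes are descriptions. Every probe set that the array annotation assigns to them alone was taken. That gave 25 of the array's 54675 probe sets, for 10 of the 19775 genes named by a probe set of their own. Because 5 of the 10 genes had more than 1 probe set, the probe set with the highest mean over the 6 arrays stood for the gene.

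HT-29 is an established human colon adenocarcinoma line, and bortezomib is a proteasome inhibitor. The 3 variants were wild type, BR100 and BR200, each with 2 Affymetrix arrays. In every variant, replicate 1 was labelled from 100 ng of total RNA with the Express kit and replicate 2 from 3 ug with the One-Cycle kit. Per the labels, bortezomib was raised stepwise from 20 to 300 nM over 7 months, and limiting dilution under 100 or 300 nM then ran for another 4 months. That text is repeated for all 6 samples, wild type included. It does not give the dose under which BR200 was cloned, or whether drug was present at harvest. BR100 and BR200 are clones, so each stands for 1 clonal line. Whether a variant's 2 arrays came from different cultures is not stated, so p-values reflect only array-to-array spread, which may be technical.

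The transporters work in families. SLC7A11 imports cystine in exchange for glutamate and so feeds glutathione synthesis, while SLC7A5 exchanges glutamine for leucine and other large neutral amino acids. Both need SLC3A2, the heavy chain that brings them to the plasma membrane. When amino acids run short or unfolded proteins accumulate, kinases that phosphorylate eIF2alpha raise translation of the transcription factor ATF4, and many transporter genes are among the known targets of ATF4.

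Values are log2 expression as deposited, and a difference of 1 is a change of 2-fold. A gene was tested if it stood at 4 or more, above the array floor, on 2 arrays or more, and was called changed at an adjusted p under 0.05. Of the 10 transporters, 9 were tested, and all 9 lay at 4 or above on all 6 arrays. All 9 were lower in BR100 than in wild type and all 9 were lower in BR200, by at least 2-fold in each case. Among all 10370 genes tested, 31.8% were called lower and 36.7% higher in BR100, and 31.2% lower and 35.4% higher in BR200. Falls of at least 2-fold made up 12% and 10.7%. The fall ran from 3.74-fold to 22.7-fold in BR100, with a median of 6.55-fold. In BR200 the median was 5.25-fold, and the fall ran from 3.65-fold to 30.2-fold for 8 genes, while SLC43A1 was 37.2-fold lower, a size that depends on the background estimate. On the log2 scale the medians of the 9 were -2.71 and -2.39, where those of all genes tested were 0.04 and 0.04. The wild type and clone arrays did not overlap for any of the 9. Groups that do not overlap were common on these arrays, at 72.1% of all genes tested for BR100 and 69.5% for BR200. Both comparisons use the same wild type arrays. In RNA from a whole culture, fewer cells with a transcript and less transcript per cell cannot be told apart. The gap between 3' and 5' control probe sets of ACTB, which widens in partly degraded or short-labelled RNA, was 4.22 and 3.00 in wild type, 3.03 and 1.86 in BR100, and 3.24 and 1.76 in BR200, Express before One-Cycle. The same gap for GAPDH was 0.48 and 0.40 in wild type, 0.22 and 0.16 in BR100, and 0.20 and 0.18 in BR200. Both gaps were wider in wild type within each kit, and their part in the falls of the transporters was not tested.

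**Figure D1:**
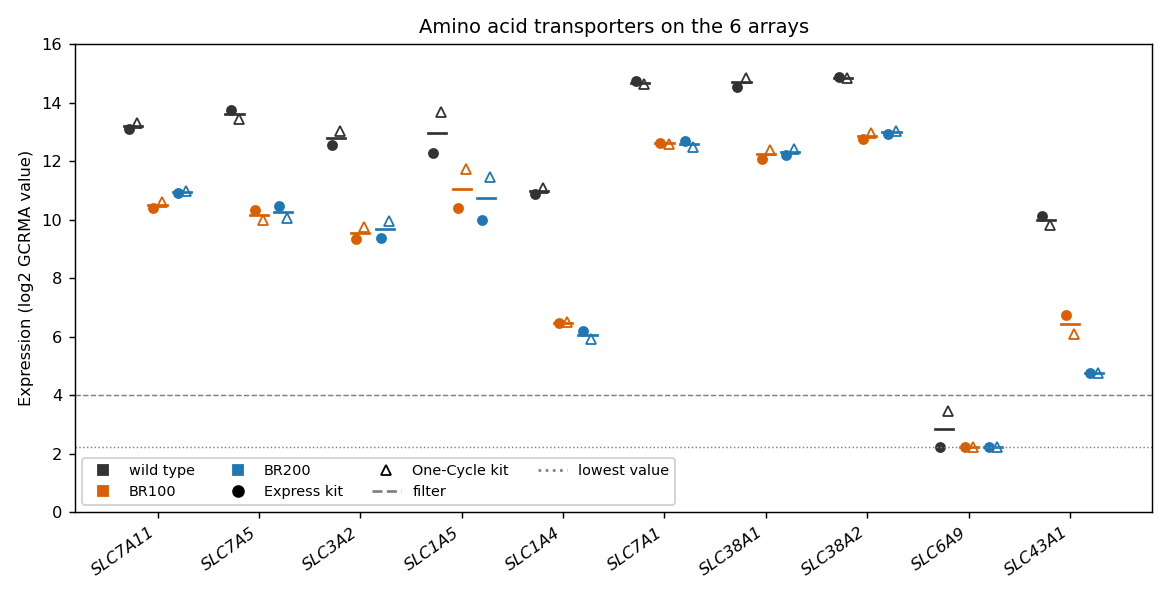
Log2 expression of the 10 transporters (y axis) on each of the 6 arrays, by variant, with the labelling kit shown by the marker. For the 9 genes tested, every wild type array lies above every array of BR100 and BR200, and SLC6A9 lies at the lowest value of 2.23 on 5 arrays.

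The cystine importer SLC7A11 stood at 13.10 in wild type with the Express kit and at 13.29 with the One-Cycle kit. In BR100 it stood at 10.38 and 10.59, and in BR200 at 10.91 and 10.99, in the same kit order. The order was wild type, then BR200, then BR100, and no array of a variant reached the range of another. The fall was 6.55-fold in BR100 (log2 change -2.71, SE 0.07, limma adjusted p = 9.17e-05, 2 arrays per variant). In BR200 it was 4.74-fold (log2 change -2.25, SE 0.07, limma adjusted p = 0.000155). SLC7A11 was thus less reduced in BR200 than in BR100, by 0.47 on the log2 scale (SE 0.07, 95% interval 0.27 to 0.66, limma adjusted p = 0.036). Across all genes tested, 10.6% were called between the clones, with 6.39% of all genes higher in BR200. The 16 other settings are not all separate fits, since leaving out either wild type array repeats the fit of the clones alone. This difference between the clones passed in 6 of 16 other settings (adjusted p from 0.00195 to 0.263). Leaving out any 1 of the 6 arrays ended the call, at differences of 0.40 to 0.53.

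SLC3A2 encodes the heavy chain shared by SLC7A11 and SLC7A5. It read 12.54 and 13.03 in wild type, 9.35 and 9.75 in BR100, and 9.37 and 9.95 in BR200, Express before One-Cycle. Both clones lay well under wild type and overlapped each other. The fall was 9.43-fold in BR100 (log2 change -3.24, SE 0.08, limma adjusted p = 7.74e-05) and 8.72-fold in BR200 (log2 change -3.12, adjusted p = 0.000101). The large neutral amino acid exchanger SLC7A5 read 13.75 and 13.45 in wild type, 10.31 and 9.98 in BR100, and 10.45 and 10.05 in BR200. Again the clones overlapped each other and lay apart from wild type. SLC7A5 fell 10.9-fold in BR100 (log2 change -3.45, SE 0.07, limma adjusted p = 6.99e-05) and 10.1-fold in BR200 (log2 change -3.34, adjusted p = 8.06e-05). The clones were not called different for either gene, with BR200 minus BR100 at 0.11 for SLC3A2 (adjusted p = 0.386) and 0.11 for SLC7A5 (adjusted p = 0.351). Both subunits of the SLC7A5 transporter, and both of the SLC7A11 transporter, were lower in both clones.

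SLC1A4 and SLC1A5 exchange small neutral amino acids, SLC1A4 with a preference for alanine, serine and cysteine, and SLC1A5 with a high capacity for glutamine. SLC1A4 read 10.87 and 11.09 in wild type, 6.45 and 6.50 in BR100, and 6.19 and 5.93 in BR200. It had the largest fall of the 9 in BR100, 22.7-fold (log2 change -4.50, SE 0.13, limma adjusted p = 0.000106), and ranked 66 from the lowest of 10370 genes. In BR200 the fall was 30.2-fold (log2 change -4.92, SE 0.13, adjusted p = 0.000124). Every BR200 array of SLC1A4 lay below every BR100 array, but that difference did not pass (-0.41, adjusted p = 0.126).

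SLC1A5 had the smallest fall in BR100 and was the gene most moved by the kit. It read 12.26 with Express and 13.66 with One-Cycle in wild type, 10.41 and 11.71 in BR100, and 10.00 and 11.45 in BR200. The kits differed by 1.40 in wild type, 1.31 in BR100 and 1.45 in BR200, so wild type and clones are best compared within a kit. The fall was 3.74-fold in BR100 (log2 change -1.90, SE 0.07, limma adjusted p = 0.000161) and 4.72-fold in BR200 (log2 change -2.24, adjusted p = 0.000154). Within the Express kit it was -1.86 and -2.26, and within One-Cycle -1.95 and -2.21. Without the kit as a block the call was lost, with an adjusted p of 0.116 for BR100 and 0.0816 for BR200. BR200 lay 0.34 below BR100 on the log2 scale, which did not pass (adjusted p = 0.0598).

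SLC38A1 and SLC38A2 are sodium-coupled carriers that concentrate glutamine and other small neutral amino acids in the cell. SLC38A1 read 14.54 and 14.84 in wild type, 12.08 and 12.39 in BR100, and 12.20 and 12.40 in BR200. The clones overlapped, and both lay apart from wild type. SLC38A1 fell 5.51-fold in BR100 (log2 change -2.46, SE 0.07, limma adjusted p = 9.77e-05) and 5.25-fold in BR200 (log2 change -2.39, adjusted p = 0.000135). SLC38A2, the carrier known for its induction by amino acid shortage, read 14.86 and 14.83 in wild type, 12.76 and 12.96 in BR100, and 12.93 and 13.03 in BR200. Its wild type arrays were nearly equal, and the ranges of the clones overlapped. SLC38A2 fell 3.96-fold in BR100 (log2 change -1.98, SE 0.09, limma adjusted p = 0.000193) and 3.65-fold in BR200 (log2 change -1.87, adjusted p = 0.000243), the smallest fall of the 9 in BR200. BR200 minus BR100 was 0.07 for SLC38A1 (adjusted p = 0.564) and 0.12 for SLC38A2 (adjusted p = 0.421).

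SLC7A1 is the main importer of arginine and lysine in many cell types. It read 14.72 and 14.62 in wild type, 12.63 and 12.59 in BR100, and 12.69 and 12.48 in BR200. The BR100 arrays lay between the BR200 arrays. The fall was 4.16-fold in BR100 (log2 change -2.06, SE 0.08, limma adjusted p = 0.000157) and 4.23-fold in BR200 (log2 change -2.08, adjusted p = 0.000179). The difference between the clones was -0.02, with a 95% interval from -0.23 to 0.18.

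SLC43A1, a facilitated carrier of leucine and other large neutral amino acids, separated the clones most. It read 10.11 and 9.82 in wild type, 6.75 and 6.08 in BR100, and 4.75 on both BR200 arrays. The variants did not overlap, in the order wild type, BR100, BR200. The fall was 11.7-fold in BR100 (log2 change -3.55, SE 0.17, limma adjusted p = 0.000245) and 37.2-fold in BR200 (log2 change -5.22, SE 0.17, adjusted p = 0.000157). BR200 lay below BR100 by -1.66 on the log2 scale (SE 0.17, limma adjusted p = 0.0184), among 4.23% of all genes called lower there. That call was kept in 7 of 16 other settings (adjusted p from 0.000459 to 0.171). Leaving out any 1 of the 6 arrays ended it, at differences of -1.93 to -1.40. As for SLC7A11, the 16 settings are not all separate fits. The BR200 arrays held the same value to within 1e-06, as they did for 2.25% of the genes tested, so the size of the BR200 fall depends on the background estimate.

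SLC6A9, a sodium- and chloride-dependent glycine transporter, was at the array's lowest value of 2.23 on 5 arrays. The wild type One-Cycle array read 3.45. Its single probe set was under the limit of 4 on every array, so no fold was computed. Between the clones, 2 of the 9 transporters tested differed, SLC7A11 higher and SLC43A1 lower in BR200, and 7 were not called, where 10.6% of all genes tested were called. Leaving out any 1 array left 0 of the 9 called by limma, with 2 to 4 at an unadjusted p under 0.05. Groups of BR200 and BR100 did not overlap for 3 of the 9, where the share over all genes tested was 37.1%.

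**Figure D2:**
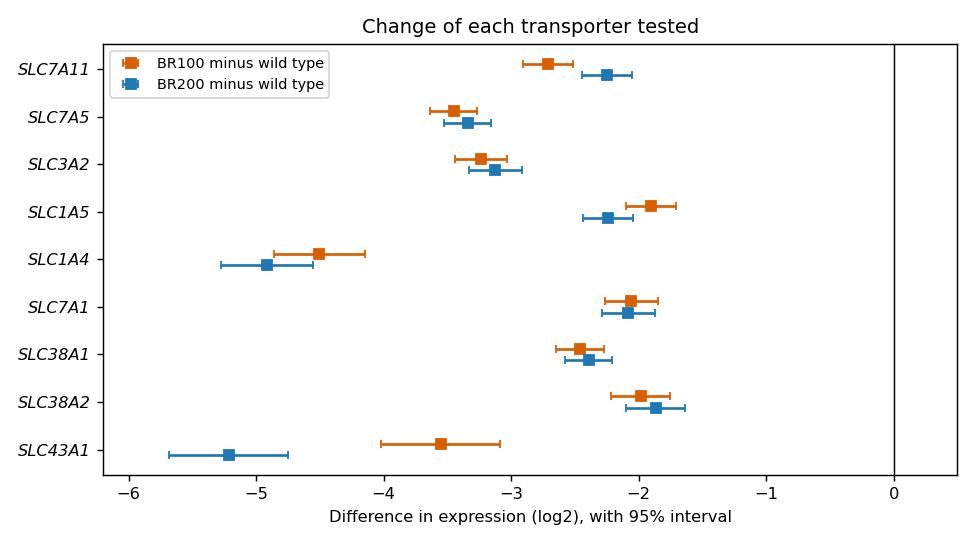
Log2 difference from wild type (x axis) of the 9 transporters tested, for BR100 and BR200, with 95% intervals from limma over 2 arrays per variant. All 18 intervals lie below 0. The differences themselves run from -1.87 for SLC38A2 to -5.22 for SLC43A1, both in BR200. The BR100 and BR200 intervals of a gene lie apart for SLC7A11 and SLC43A1 and meet or overlap for the other 7.

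Probe sets of the same gene moved in the same direction but not by the same amount. Of the 25 probe sets, 19 were tested, and all 19 were called lower in BR100 and in BR200, among 30.9% and 29.8% of all 19055 probe sets tested on their own. Log2 changes ran from -4.91 to -1.54 in BR100 and from -5.40 to -1.10 in BR200. For SLC7A11 the 3 probe sets gave -2.71, -3.16 and -1.54 in BR100 and -2.25, -2.39 and -1.10 in BR200. The last of them read 5.01 and 6.17 in wild type, near the limit of 4, and 3.58 to 4.88 in the clones. For SLC1A4 the 3 tested probe sets gave -4.50, -4.91 and -4.33 in BR100 and -4.92, -5.40 and -4.66 in BR200. Averaging all 5 probe sets of SLC1A4, 2 of them near background in the clones, gave smaller falls, -3.43 and -3.68.

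The 3 tested probe sets of SLC7A1 gave -2.06, -2.80 and -2.46 in BR100 and -2.08, -3.05 and -2.75 in BR200, so the probe set standing for the gene had the smallest fall. For SLC38A1 they gave -2.46, -2.46 and -3.29 in BR100 and -2.39, -2.33 and -3.24 in BR200. For SLC38A2 they gave -1.98, -2.27 and -2.39 in BR100 and -1.87, -2.12 and -2.32 in BR200. Between the clones, 1 probe set was called higher in BR200 and 1 lower, that of SLC43A1, among 5.7% of all probe sets tested. The higher was a SLC7A11 probe set other than the one standing for the gene, with a difference of 0.77 (limma adjusted p = 0.0286). The probe set standing for SLC7A11 was not called here (0.47, limma adjusted p = 0.0578), nor was the remaining one (0.44, adjusted p = 0.113). The 6 probe sets not tested belonged to SLC1A4, SLC7A1, SLC38A1 and SLC6A9. Probe sets for the antisense genes SLC38A2-AS1 and SLC7A11-AS1 reached at most 2.39.

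**Figure D3:**
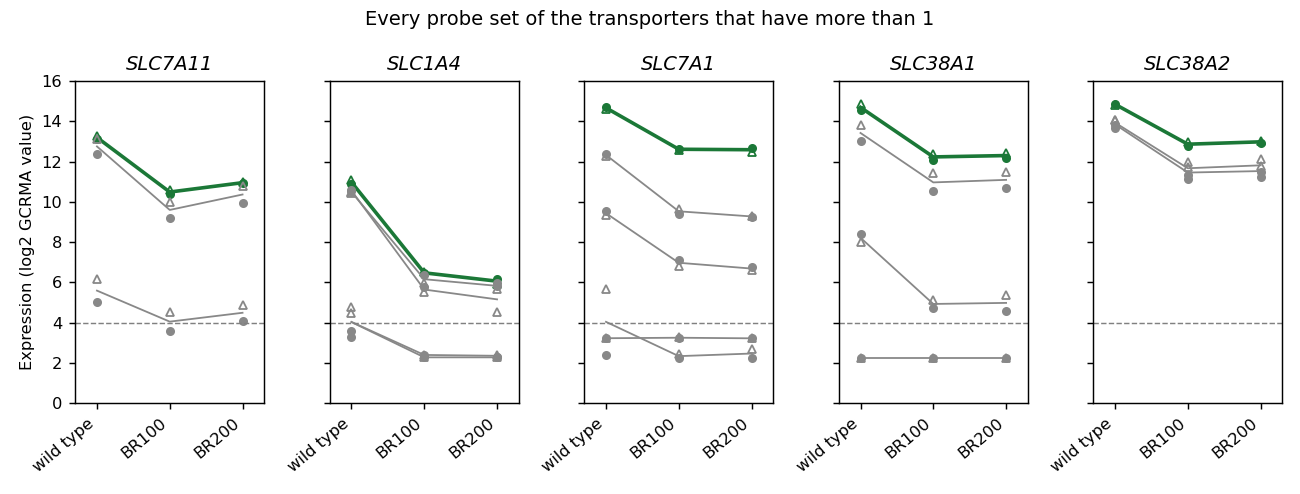
Log2 expression (y axis) of every probe set of the 5 transporters that have more than 1, on the 6 arrays, by gene. A filled circle marks Express and an open triangle One-Cycle, and the probe set standing for the gene is in green. Every tested probe set shown was lower in both clones, while the others shown reached 4 or more on at most 1 array.

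Promoter sequence was set beside these values as a description only. RefSeq windows on GRCh38.p14, from 250 bases before to 50 bases after a transcription start, were found for 9 of the 10 genes, in 16 windows, and not for SLC7A11. The core of the element that ATF4 binds, the C/EBP-ATF response element or CARE, was searched as TGATGNAAN on both strands. It was found in 5 of 16 windows, 1 each for 5 of the 9 genes, where 3.61% of all 35116 windows and 4.45% of all 27305 genes held it. The 5 matches are shown on the gene's strand with the core in capitals, to let the spacing around it be compared; where the capitals read as the reverse complement, the core lies on the other strand. They lie at chr2:64989381-64989409 (plus strand gene, 8 bases before the start), chr11:62881725-62881748 (plus, 36 past it), chr12:46266502-46266530 (minus, 4 before), chr13:29595663-29595691 (minus, 7 past) and chr19:46784893-46784921 (minus, 97 before, in 1 of the windows of SLC1A5).
SLC1A4: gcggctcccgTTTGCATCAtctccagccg
SLC3A2: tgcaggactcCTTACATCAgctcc
SLC38A1: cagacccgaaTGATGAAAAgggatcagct
SLC7A1: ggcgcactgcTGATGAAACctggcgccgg
SLC1A5: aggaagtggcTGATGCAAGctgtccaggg

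The genes with and without this core in a window both fell. SLC1A4, with the largest fall in BR100, held it, and so did SLC1A5, with the smallest. SLC7A5, SLC38A2 and SLC43A1 fell without a match in these windows. The antioxidant response core, TGACNNNGC on both strands, is the short form of the element bound by NFE2L2. It was found in 4 of 16 windows, for SLC3A2, SLC7A1, SLC7A5 and SLC1A5, and in 13.3% of all windows. The E-box CACGTG, which MYC and its relatives bind, was found in 3 of 16 windows, for SLC43A1, SLC7A5 and SLC1A5, and in 7.26% of all windows. SLC7A5 held both of these and no CARE core. Its promoter is shown from 140 bases before to 12 bases past the start, chr16:87869496-87869647 on the minus strand, with the E-box first and the antioxidant response core second in capitals. The antioxidant response core of SLC3A2 lies at chr11:62881652-62881680, upstream of its CARE core. A match is a run of letters and was not tested as a binding site.
SLC7A5: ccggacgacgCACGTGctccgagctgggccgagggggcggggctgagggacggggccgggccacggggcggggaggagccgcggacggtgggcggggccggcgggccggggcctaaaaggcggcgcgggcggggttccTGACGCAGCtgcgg
SLC3A2: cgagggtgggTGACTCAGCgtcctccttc

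The regulators of the amino acid response were mostly lower as well. Of 18 tested, 14 fell and 4 rose in BR100 with a median of -1.38, and 13 fell, 2 rose and 3 did not pass in BR200 with a median of -1.11. Any change was called for 68.5% of all genes in BR100 and 66.5% in BR200. ATF4 itself read 13.80 and 13.84 in wild type, 12.57 and 12.56 in BR100, and 12.95 and 12.88 in BR200. It fell by 1.26 on the log2 scale in BR100 (limma adjusted p = 0.000308) and by 0.91 in BR200 (adjusted p = 0.000719). DDIT3, a transcription factor of the same response, fell by 3.65 in BR100 and fell by 3.63 in BR200. TRIB3, a pseudokinase induced by ATF4 and DDIT3, fell by 3.76 in BR100 and fell by 3.83 in BR200. PPP1R15A, which directs dephosphorylation of eIF2alpha, fell by 3.76 in BR100 and by 2.28 in BR200.

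ATF3, a transcription factor induced downstream of ATF4, differed between the clones. It read 9.42 and 9.28 in wild type, 5.61 and 4.63 in BR100, and 9.78 and 9.58 in BR200. Only BR100 was called against wild type, with a log2 change of -4.23 (limma adjusted p = 0.000316), against 0.33 in BR200 (adjusted p = 0.275). Every BR200 array lay above every wild type array. NFE2L2, an activator of antioxidant genes and of SLC7A11, fell by 0.67 in BR100 (adjusted p = 0.00125) and by 0.53 in BR200 (adjusted p = 0.00271). MYC rose by 0.62 in BR100 (adjusted p = 0.0042) and was 0.20 above wild type in BR200 (adjusted p = 0.111).

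Genes that use the imported amino acids did not all move one way. In the list for cystine, glutathione and glutamine use, 8 of 14 tested fell and 5 rose in BR100 (median -0.41), and 8 fell and 4 rose in BR200 (median -0.40). The shares called were 92.9% and 85.7%, against 68.5% and 66.5% of all genes tested. CHAC1, which breaks down glutathione, read 9.02 and 8.92 in wild type and 2.81 to 2.91 in the clones. Its log2 changes of -6.13 and -6.11 rest on the background estimate, since both clones lay under 4. ASNS, asparagine synthetase, read 13.99 and 14.13 in wild type and 9.78 to 9.88 in the clones, and fell by 4.23 in BR100 and by 4.21 in BR200. CTH, which makes cysteine from cystathionine, changed by -3.65 and -3.56. GCLM, the modifier subunit of the first enzyme of glutathione synthesis, rose by 1.14 in BR100 (limma adjusted p = 0.000579) and by 1.28 in BR200 (adjusted p = 0.000492).

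Genes listed as other plasma membrane transporters of amino acids moved in both directions or were not called. The list was set by name, and where each protein sits in these cells was not tested. Of 36 listed, 34 had a probe set and 13 were tested. In BR100, 4 fell, 3 rose and 6 did not pass (median -0.14), and in BR200, 4 fell, 2 rose and 7 did not pass (median 0.02). SLC3A1 and SLC7A2, counted as falls in both clones, reached 4 only on wild type arrays. SLC38A4, counted as a rise in BR100, reached 4 only on BR100 arrays. The direction of these genes follows in part from the filter. The shares called, 53.8% and 46.2%, were below the 68.5% and 66.5% of all genes tested. SLC7A2, a cationic amino acid transporter related to SLC7A1, read 6.75 and 5.90 in wild type and 2.27 to 2.31 in the clones, with log2 changes of -4.03 and -4.04 that rest on the background estimate. SLC38A6 moved opposite to SLC38A1 and SLC38A2, from 6.05 and 5.95 in wild type to 9.01 and 8.56 in BR100 and 9.18 and 8.78 in BR200. It rose by 2.78 in BR100 (limma adjusted p = 0.000172) and by 2.98 in BR200 (adjusted p = 0.000183).

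SLC6A6, the taurine transporter, rose by 0.79 in BR100 and by 1.56 in BR200. SLC38A4 reached 4.88 and 4.31 in BR100 and lay at 2.23 to 2.32, at or near the array's lowest value, on the other 4 arrays. SLC3A1, the heavy chain that partners other light chains in kidney and gut, lay near the limit. It read 4.13 and 4.61 in wild type and 3.55 to 3.94 in the clones, so it was tested through its wild type arrays alone. Its log2 changes of -0.43 and -0.68 rest on the background estimate. Carriers of lysosomes and mitochondria had 10 of 16 tested called higher and 2 lower in BR100 (median 0.35), and 7 higher and 3 lower in BR200 (median 0.26). Over all genes tested, 36.7% and 35.4% were called higher; the list's share called in either direction, 75% and 62.5%, was near the 68.5% and 66.5% of all genes. The sideroflexins, mitochondrial carriers of which SFXN1 imports serine, were among those that rose: SFXN1 by 1.01 and 0.94, SFXN2 by 1.47 and 1.13, and SFXN3 by 0.49 and 1.10. SLC25A29, a mitochondrial carrier of basic amino acids, rose by 0.37 and 1.20.

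Amino acids taken up by these carriers are sensed upstream of mTORC1, the kinase complex that couples nutrient supply to growth. Of 25 sensing genes tested, 10 fell and 7 rose in BR100 (median -0.01), and 7 fell and 9 rose in BR200 (median 0.02). The shares called, 68% and 64%, were near the 68.5% and 66.5% of all genes tested. SESN2, a leucine sensor, stood out with log2 changes of -4.62 and -5.21. RRAGC, a Rag GTPase, fell by 1.07 and by 1.15, while LAMTOR2, a part of the Ragulator complex that anchors it, rose by 1.10 and 1.12. SEC13, shared by a nutrient-sensing complex and the secretory coat, rose by 1.43 and 1.35.

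Of 10 membrane partners and regulators of transporters tested, 6 fell and 3 rose in BR100 (median -1.45), and 5 fell and 2 rose in BR200 (median -0.89). The shares called were 90% and 70%, the latter near the 66.5% of all genes tested. The arrestin family showed both shared and separate changes. ARRDC4 fell by 3.89 in BR100 and by 4.10 in BR200. TXNIP, which promotes removal of glucose transporters from the surface, read 13.24 and 13.41 in wild type, 9.47 and 9.77 in BR100, and 11.08 and 11.32 in BR200, with no overlap between variants. ARRDC3 fell by 2.02 in BR100 and was 0.27 below wild type in BR200 (adjusted p = 0.07). NEDD4, a ubiquitin ligase, changed by -2.03 and -1.80.

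**Figure D4:**
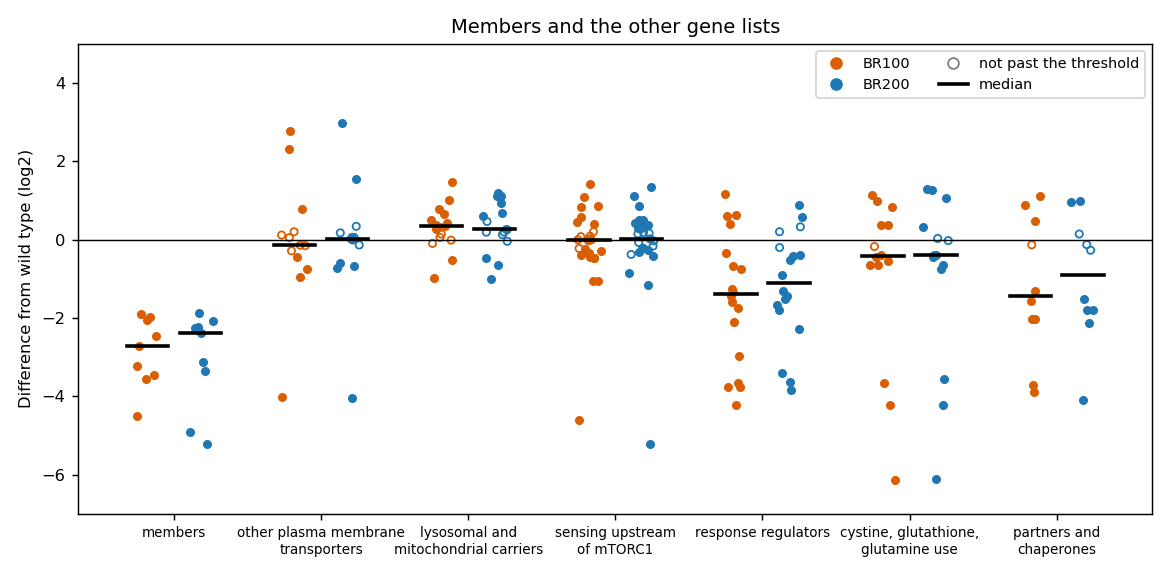
Log2 difference from wild type (y axis) of each tested gene of the transporter set and of 6 other lists, for BR100 and BR200, with filled points for called genes and a bar at the median. The medians of the 9 transporters, -2.71 and -2.39, lie below those of the 6 lists, the nearest of which are -1.45 in BR100 and -1.11 in BR200.

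Among all genes tested, the 9 transporters lay in the low tail. Ranked from the lowest log2 change in BR100, SLC1A4 was at 66, SLC43A1 at 134, SLC7A5 at 142, SLC3A2 at 162, SLC7A11 at 235, SLC38A1 at 299, SLC7A1 at 415, SLC38A2 at 450 and SLC1A5 at 483. In BR200 the ranks ran from 37 for SLC1A4 to 396 for SLC38A2, with SLC43A1 lower still, at a rank that depends on the background estimate. Each of the 9 was thus within the lowest 4.66% in BR100 and the lowest 3.82% in BR200.

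**Figure D5:**
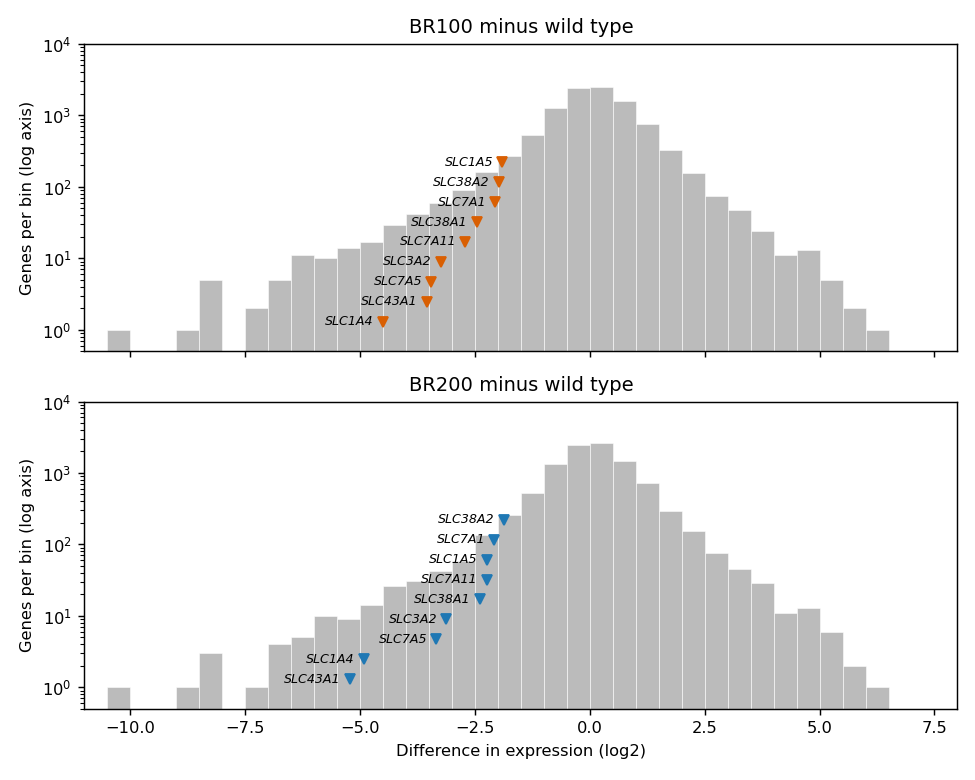
Histograms of the log2 difference from wild type (x axis) over the 10370 genes tested, in BR100 and BR200. A labelled triangle marks each of the 9 transporters. The triangles lie between -4.50 and -1.90 in BR100 and between -5.22 and -1.87 in BR200, while the median gene is at 0.04 in both.

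The genes with profiles most like those of the transporters were sought over the 6 arrays, as the smallest root mean square difference of log2 values centred on each kit's mean. For SLC7A11 these were GADD45B at 0.0492, DDX60L at 0.0598 and CKAP4 at 0.0774. GADD45B, a stress-inducible gene, changed by -2.63 in BR100 and -2.21 in BR200. DDX60L changed by -2.66 and -2.18, and CKAP4, a protein of the endoplasmic reticulum membrane, by -2.80 and -2.15. For the mean profile of the 9 transporters they were HERPUD1 at 0.0457, S100A14 at 0.0737 and ENDOD1 at 0.0965. HERPUD1, which takes part in the degradation of misfolded proteins of the endoplasmic reticulum, changed by -2.85 and -2.95. S100A14 changed by -2.72 and -2.91, and ENDOD1 by -2.68 and -3.00.

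Markers of colon epithelium were present, but some fell in the clones. Of 10 colon epithelial markers, 8 were tested; EPCAM, KRT8, KRT18 and KRT19 were not called, while KRT20, CDH1, VIL1 and LGALS4 were lower in both clones, LGALS4 with log2 changes of -5.99 and -5.56. CDX1 and CDX2 lay near the array's lowest value. The log2 of the markers' summed level was 17.31 to 17.35 in wild type, 17.00 to 17.01 in BR100 and 17.07 in BR200. For fibroblasts 3 of 8 markers were tested, with summed levels of 6.78 to 6.95 in wild type, 6.68 to 7.03 in BR100 and 6.89 to 7.28 in BR200. ACTA2 rose by 1.02 in BR100 (limma adjusted p = 0.00144) and by 1.13 in BR200 (adjusted p = 0.00118). TAGLN changed by -1.10 in BR100 (adjusted p = 0.000946), where it was under 4, and COL1A1 by -0.33 (adjusted p = 0.0323). In BR200 neither TAGLN nor COL1A1 was called (adjusted p = 0.106 and 0.119). COL1A2, COL3A1, DCN, LUM and PDGFRB lay at or near the lowest value. For blood cells 2 of 5 were tested, with summed levels of 14.34 to 14.56 in wild type, 14.40 to 14.84 in BR100 and 14.59 to 14.79 in BR200. That sum is nearly all LYZ, at 14.34 to 14.84 and not called in either clone. CD14 rose in BR200 by 1.05 (limma adjusted p = 0.0013), and PTPRC and CD3E lay at the lowest value. For endothelium 1 of 5 was tested, ENG, which was not called, with summed levels of 5.47 to 5.52 over the 6 arrays. The part of the fallen epithelial markers in the transporter results was not tested.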

How the data were processed

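Expression was measured on 6 Affymetrix arrays, 2 for each of 3 HT-29 variants. The authors deposited log2 values, 1 per probe set, made with GCRMA per the submitters' processing notes; its version is not given in the sources used here. Between 34.9% and 35.3% of each array's probe sets sat at the lowest value, 2.23. By the array annotation, 41097 probe sets belong to 1 gene, 1801 to more than 1 and 11777 to no gene, and symbols were checked against RefSeq by gene identifier (41043 matched).

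Each of 19775 genes was represented by its probe set with the highest mean. Genes at a log2 value of 4 or more on at least 2 arrays (10370) entered a linear model over all arrays with variant and labelling kit as terms, using lmFit and eBayes of limma 3.58.1 (R 4.3.3). Tests were two-sided, with Benjamini-Hochberg adjustment over all genes tested and calls at 0.05. Residual degrees of freedom were 2, plus 2.33 from the moderation. The median SE was 0.0876; the number of arrays limits the precision. The script was tested on simulated data.

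The replicate number marks the kit, which makes it a pairing of the arrays: deviations from the variant means correlated between same-kit arrays at 0.762, 0.776 and 0.845. The members and lists were chosen with earlier results of these data known, so no list was tested as a set. The text names all 10 transporters, and from each list up to 4 called genes with the largest change, plus ATF4, DDIT3, NFE2L2, MYC and SLC3A1, and for likeness the 3 nearest genes. ACTB and the cell type markers were named as checks. Alternatives covered normalization, filter, probe set choice, the block, the arrays fitted, the variance moderation and leaving out each array.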

Additional observations from a re-analysis of the deposited data

Results flagged for a closer look

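The clones differed from each other, by the limma test of BR200 minus BR100 at an adjusted p under 0.05, for 2 transporters. The difference was 0.47 on the log2 scale for SLC7A11 (adjusted p = 0.036) and -1.66 for SLC43A1 (adjusted p = 0.0184). Among genes of the other lists it was 0.77 for SLC6A6 (adjusted p = 0.013), -2.30 for SLC38A4 (adjusted p = 0.00765), 0.83 for SLC25A29 (adjusted p = 0.0284) and 0.61 for SFXN3 (adjusted p = 0.0447). The SLC38A4 value rests on the background estimate, since that gene was tested through its BR100 arrays alone and was under 4 in BR200, and so does the size for SLC43A1. ATF3 had the widest gap, at 4.56 (adjusted p = 0.00525). PPP1R15A differed by 1.48 (adjusted p = 0.0322), TXNIP by 1.58 (adjusted p = 0.00461) and ARRDC3 by 1.75 (adjusted p = 0.00611). Of all genes tested, 10.6% were called between the clones. Without any 1 of the BR100 or BR200 arrays no gene was called, these included (1953 to 2135 of all genes at an unadjusted limma p under 0.05), and without a wild type array 61 genes were.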

How the results depend on the processing

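Against wild type, the transporters kept their direction in all 140 alternative fits for each clone and their call in 139; the exception was SLC1A5 without the replicate block (adjusted p = 0.116 and 0.0816). These fits are not all separate: leaving out an array of the variant not compared gives the same fit as taking only the variants compared. With probe sets free of the suffixes for cross-hybridization, 5 of 5 transporters that could be tested were called in each clone. Between the clones, 2 of 9 were called, 1 with every probe set adjusted on its own, and 0 with no filter, no replicate block or only the variants compared, where 3, 3 and 4 had an unadjusted limma p under 0.05. Leaving out 1 array gave 0 in each case, with 2 to 4 at an unadjusted p under 0.05; these fits had fewer arrays.

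Over all genes, calls without the replicate block numbered 4387 in BR100, 4100 in BR200 and 112 between the clones (7102, 6901 and 1102 with it). Every probe set on its own gave 11972 and 11349 of 19055. Between the clones, no filter gave 15, only the variants compared 61 and trended robust moderation 2254. Leaving out 1 array gave 0 to 61; in the 4 fits at 0, without a BR100 or BR200 array, 1953 to 2135 genes had an unadjusted p under 0.05. Of the calls between the clones, 60.2% were higher in BR200, but 84.8% without the block and 91.8% with only the variants compared; the cause was not tested.

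Counts for the lists moved as follows. For other plasma membrane transporters in BR100, 7 became 4 with the stricter filter and 3 with probe sets averaged. For lysosomal and mitochondrial carriers, 12 in BR100 became 5 with no filter, 5 without the block and 6 to 10 without 1 array, and 10 in BR200 became 6 without the block. For sensing genes, 17 in BR100 became 10 with no filter, 7 with suffix-free probe sets, 9 without the block and 11 to 14 without 1 array; 16 in BR200 became 10, 7, 6 and 7 to 12. For cystine, glutathione and glutamine use, 13 in BR100 became 8 with no filter and 8 without the block, and 12 in BR200 became 7 and 7. For membrane partners, suffix-free probe sets gave 5 in BR100 and 4 in BR200, of 7 tested. The depth of these data is limited by signal over background: a gene near the lowest value has only an estimated size.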
